A study of Mus musculus with 6 samples.

Results

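Primary granule and progenitor protease genes were examined in MLL-AF9-transformed blood progenitor cultures of the mouse, as 10 genes chosen by symbol from the 24062 genes of the count table. They are Mpo, Elane, Prtn3, Ctsg, Prss57, Nkg7, Ms4a3, Cst7, Serpinb1a and Srgn. All 10 were present and all 10 passed the filter on low counts, among 12126 genes tested. Primary (azurophil) granules are formed at the promyelocyte stage of granulocyte development, and granulocyte-monocyte progenitors already transcribe their genes at high levels. The granules hold myeloperoxidase, which makes hypochlorous acid from hydrogen peroxide and chloride, and serine proteases that are stored in active form after cathepsin C has removed an inhibitory dipeptide. Serglycin packs this positively charged cargo. Serpins restrain the serine proteases, and cystatins restrain cysteine proteases. Because the program belongs to the stage that MLL-AF9 leukemias in mice resemble, its genes are used as markers of the progenitor state.

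Cells came from lineage-negative hematopoietic cells of A20 f/f or A20 +/+ mice, all with a tamoxifen-activated Cre (Rosa Cre-ER), and were transduced with a retrovirus that carried the oncogene MLL-AF9. The floxed and the wild-type cultures alike received 1 µM 4-hydroxytamoxifen for 48 h, in medium with human IL-6, mouse IL-3 and mouse SCF at 10 ng/mL each. There were 3 libraries labelled A20 KO and 3 labelled A20 WT, and the labels do not say whether replicates were separate cultures or animals. The comparison asks how deletion of A20, an inhibitor of NF-κB signalling encoded by Tnfaip3, altered expression in these cells.

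The libraries held 16113320 to 25415274 counted reads. Tnfaip3 was higher in the KO-labelled libraries (84.4 ± 13.8 CPM) than in the WT-labelled libraries (8.10 ± 0.65 CPM; SD, n = 3 each). CPM are read counts scaled to library size with TMM factors, and the count covers the whole gene, so that the deletion itself was not measured. Tnfaip3 counts were thus not lower under the KO label, and whole-gene counts do not tell whether the floxed part was lost. The groups are therefore named as labelled, and no direction here is one of a verified deletion. Xist lay between 0 and 4.77 CPM in the KO-labelled libraries against 564 to 2109 CPM in the WT-labelled ones, and Ddx3y between 78.5 and 89.2 CPM in the KO-labelled libraries against 0 to 0.80 CPM in the WT-labelled ones, so that label and donor sex cannot be told apart. Replicate 1 stood apart in both groups: chi-square per degree of freedom was 2.43 between KO-labelled replicates 2 and 3 but 83.9 to 99.4 against replicate 1, and 26.2 against 216 to 242 among the WT-labelled libraries. Gapdh, a glycolytic enzyme gene, had 2716, 254 and 248 CPM in the libraries labelled KO, while those labelled WT had 2645, 181 and 167 CPM. In this gene replicate 1 stood apart in the same direction in both groups. Over all genes tested, the deviations of the replicate 1 libraries from their group means correlated at −0.0060 between the groups. Ptprc, the pan-leukocyte antigen CD45 (540.9 ± 49.4 CPM in KO- and 360 ± 126 CPM in WT-labelled libraries), and Spi1, the myeloid factor PU.1 (228 ± 32.3 CPM in KO- and 180 ± 25.9 CPM in WT-labelled libraries), were expressed in both groups.

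The start regions of 5 of the genes are shown because the genes moved by very different amounts: Mpo was 469-fold lower, the means of Prtn3, Elane and Ctsg were 1.74- to 1.97-fold lower (of the 3, Ctsg passed the test), and Cst7 rose, all in the KO-labelled libraries. Each sequence is the 250 bases before the RefSeq start in GRCm38.p6, read 5′ to 3′ on the gene's strand, at chr11:87793534-87793783 (plus strand), chr10:79879417-79879666 (plus), chr10:79886062-79886311 (plus), chr14:56102575-56102824 (minus) and chr2:150570165-150570414 (plus). The RefSeq starts of Mpo, Prtn3 and Elane lie downstream of the GENCODE gene starts given with these genes. Capitals mark GGAAGT, the core of ETS-type sites to which PU.1 can bind.
Mpo: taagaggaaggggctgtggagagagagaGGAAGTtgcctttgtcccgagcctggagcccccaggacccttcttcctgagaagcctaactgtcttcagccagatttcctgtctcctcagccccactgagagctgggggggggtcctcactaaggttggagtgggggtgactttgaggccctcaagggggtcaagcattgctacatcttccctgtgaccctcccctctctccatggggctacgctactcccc
Prtn3: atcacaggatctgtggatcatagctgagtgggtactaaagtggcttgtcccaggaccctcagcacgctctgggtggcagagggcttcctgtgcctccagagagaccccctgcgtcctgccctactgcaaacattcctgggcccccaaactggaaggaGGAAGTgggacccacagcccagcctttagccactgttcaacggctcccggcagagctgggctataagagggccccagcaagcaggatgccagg
Elane: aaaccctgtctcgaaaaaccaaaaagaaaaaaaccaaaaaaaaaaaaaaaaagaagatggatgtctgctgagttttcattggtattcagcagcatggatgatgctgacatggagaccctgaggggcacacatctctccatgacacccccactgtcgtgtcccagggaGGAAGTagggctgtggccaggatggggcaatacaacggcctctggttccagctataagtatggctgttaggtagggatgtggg
Ctsg: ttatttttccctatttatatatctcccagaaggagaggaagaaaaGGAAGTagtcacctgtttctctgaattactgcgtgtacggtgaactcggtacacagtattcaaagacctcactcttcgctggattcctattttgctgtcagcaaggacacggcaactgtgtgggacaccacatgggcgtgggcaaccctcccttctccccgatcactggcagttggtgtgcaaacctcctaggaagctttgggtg
Cst7: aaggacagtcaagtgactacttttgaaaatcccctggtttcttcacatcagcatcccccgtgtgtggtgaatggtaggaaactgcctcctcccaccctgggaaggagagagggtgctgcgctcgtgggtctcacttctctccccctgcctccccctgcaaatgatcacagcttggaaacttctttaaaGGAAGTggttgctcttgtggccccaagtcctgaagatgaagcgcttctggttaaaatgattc
In all 5 windows the letters stood once, with the first base 222 bases before the start in Mpo, 93 in Prtn3, 83 in Elane, 205 in Ctsg and 62 in Cst7. Windows were found for 8 of the 10 genes (9 windows, with 2 for Srgn), and 7 of the 9 held GGAAGT or its reverse complement ACTTCC, against 19.7% of 32851 windows of the same length in the genome. The reference had no entry matched for Prss57 and Serpinb1a. The RUNX core TGTGGT, searched on both strands like all motifs here, stood in 4 of the 9 windows and in 14.0% of all windows. The MYB core AACNG stood in 8 of 9 and 74.2%, and the C/EBP pattern TTNCNNAA in 3 of 9 and 36.8%. The search for GGAAGT was chosen after the windows had been read, so the counts describe the letters and test nothing. The gene whose level fell most and the gene that rose thus both carried the ETS letters.

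Of the 10 genes, 6 were lower and 1 was higher in the KO-labelled libraries (edgeR, quasi-likelihood test, threshold of 0.05 on the adjusted p), and 3 did not pass. In group means, Mpo was 469-fold lower, Nkg7 144-fold, Prss57 39.8-fold, Ms4a3 5.82-fold, Ctsg 1.97-fold and Serpinb1a 1.88-fold, while Cst7 was 36.5-fold higher. Over all genes tested, 13.7% were called lower and 13.7% higher. In 8 of the 10 genes every KO-labelled library lay below every WT-labelled library and in 1 above, where 23.5% of all tested genes lay below and 24.1% above without overlap. The median log2 fold change of the 10 genes was −0.95, against −0.04 over all genes tested. Replicates 2 and 3 by themselves gave 1 higher and 8 lower, at 25.8% of genes higher and 27.1% lower. DESeq2 on all libraries gave 1 higher and 8 lower (17% and 16.7% of genes), a term for replicate 1 gave 1 and 8 (14.6% and 14.6%), a replicate block 1 and 7 (8.16% and 8.53%), and replicates 2 and 3 summed in each group 1 and 4 (4.32% and 4.12%). Bulk RNA does not tell fewer expressing cells from less RNA per cell.

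**Figure D1:**
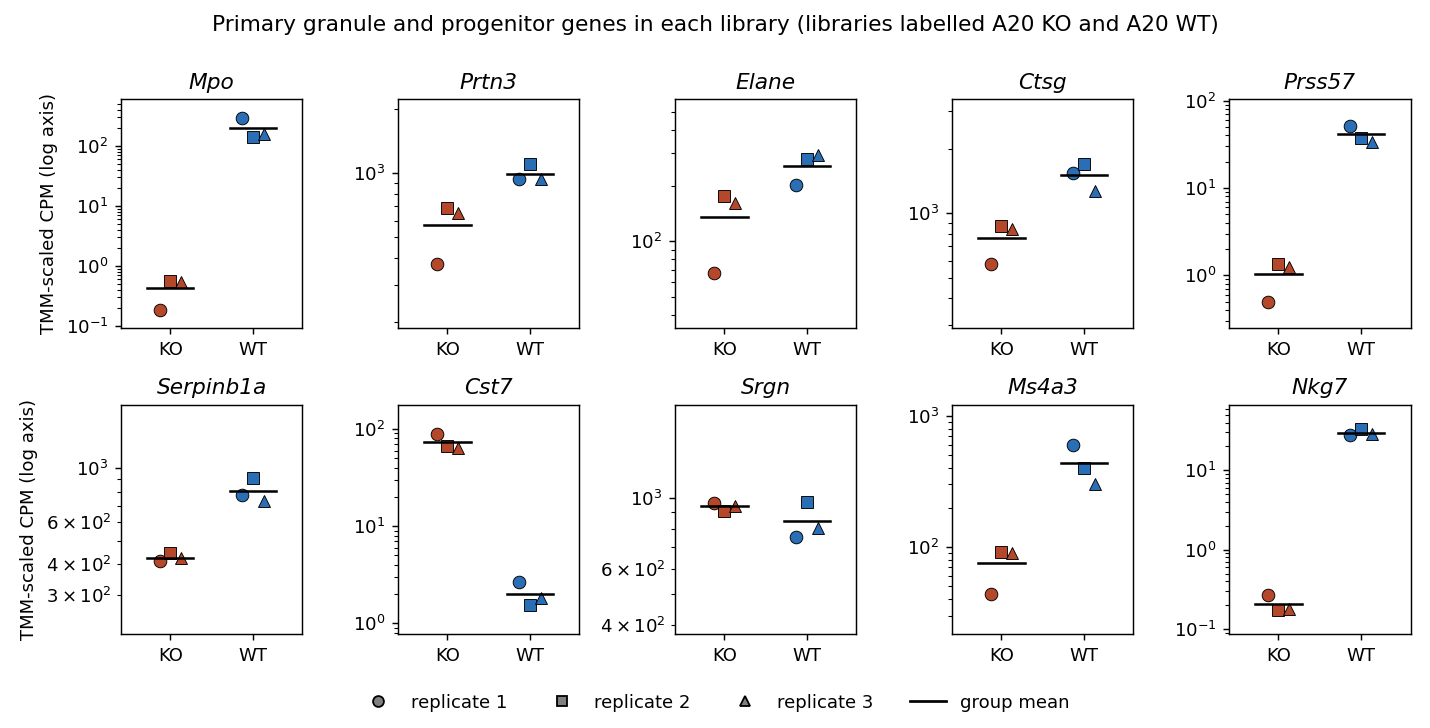
TMM-scaled CPM (log axes) of the 10 genes in each library, with KO-labelled libraries left of WT-labelled ones, a symbol for each replicate number and a line at the group mean. Mpo, Nkg7 and Prss57 sit near or under 1 CPM in all KO-labelled libraries, Cst7 is the gene with the KO-labelled libraries on top, and the groups overlap in Srgn.

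Mpo encodes myeloperoxidase, the most abundant enzyme of primary granules, and lies on chromosome 11 at 87793581 to 87804413 of mm10, plus strand. It had 0.18, 0.56 and 0.54 CPM in the libraries labelled KO (4, 13 and 9 reads), while those labelled WT had 299, 142 and 158 CPM (7169, 2482 and 3192 reads). All KO-labelled libraries were far below the lowest WT-labelled one. The means were 0.43 ± 0.21 CPM in KO- and 200.05 ± 86.2 CPM in WT-labelled libraries, 469-fold lower in the KO-labelled group, with a log2 fold change of −8.87 (SE 0.51; edgeR adjusted p = 7.83e-05). Only 20 of the 12126 genes had a more negative fold change. The call was kept in all 20 alternatives, where the log2 fold change lay between −9.17 and −8.09. Lpo, the next gene and a related peroxidase, had no read in the KO-labelled libraries and a mean of 0.056 CPM in the WT-labelled ones. Of the 31-base stretches of the Mpo transcripts, 12.1% also occurred in other genes, mainly in the overlapping antisense gene Gm11505, which was not analysed here.

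The serine proteases of the granule did not move alike. Prtn3 (proteinase 3) and Elane (neutrophil elastase) sit next to each other on chromosome 10, at 79874476 to 79883174 and 79886247 to 79888215. Prtn3 had 375, 687 and 648 CPM in the libraries labelled KO, while those labelled WT had 939, 1107 and 934 CPM. Elane had 67.5, 175 and 162 CPM in the libraries labelled KO, while those labelled WT had 200.5, 277 and 293 CPM. In both genes all KO-labelled libraries were below all WT-labelled libraries, and KO-labelled replicate 1 was well below the other two. The log2 fold changes were −0.80 (SE 0.25; edgeR adjusted p = 0.055) for Prtn3 and −0.93 (SE 0.35; adjusted p = 0.095) for Elane, which did not pass. In replicates 2 and 3 alone both passed (Prtn3 −0.63, edgeR adjusted p = 0.0033; Elane −0.77, 3.39e-04), and with a term for replicate 1 as well (0.024 and 0.013). With replicates 2 and 3 of each group summed, neither passed (edgeR adjusted p = 0.22 for Prtn3 and 0.29 for Elane). KO-labelled replicates 2 and 3 were the closest pair of libraries with the same label. Their chi-square per degree of freedom was 2.43, where counting noise alone gives about 1. Prtn3 also passed without WT-labelled replicate 1 (adjusted p = 0.039), and DESeq2 called both (0.0077 and 0.031). Of the Prtn3 transcripts, 7.48% of 31-base stretches matched Plppr3, which overlaps on the other strand and was not analysed here.

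Ctsg encodes cathepsin G, a chymotrypsin-like protease, on chromosome 14 at 56099881 to 56102574. It had 578, 867 and 843 CPM in the libraries labelled KO, while those labelled WT had 1536, 1703 and 1267 CPM. The lowest WT-labelled library was above the highest KO-labelled one. The log2 fold change was −0.98 (SE 0.22; edgeR adjusted p = 0.018), a 1.97-fold reduction of the mean. Leaving out KO-labelled replicate 2 (edgeR adjusted p = 0.054), KO-labelled replicate 3 (0.059) or WT-labelled replicate 2 (0.057) ended the call, and so did summing KO-labelled replicates 2 and 3 (0.057). Mcpt8, the mast cell and basophil protease gene beside it, was lower as well, at 4.63 ± 1.45 CPM in KO-labelled and 17.7 ± 5.29 CPM in WT-labelled libraries (log2 fold change −1.93, SE 0.33, edgeR adjusted p = 0.0057). Gzme, a granzyme gene on the other side, had no read in the KO-labelled libraries and a mean of 0.014 CPM in the WT-labelled ones.

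Prss57, a serine protease gene of the same chromosome 10 cluster (79781474 to 79790961, minus strand), showed a far larger difference. It had 0.50, 1.34 and 1.25 CPM in the libraries labelled KO (11, 31 and 21 reads), while those labelled WT had 51.5, 37.6 and 34.0 CPM (1233, 655 and 685 reads). The groups were 39.8-fold apart in their means, with a log2 fold change of −5.32 (SE 0.39; edgeR adjusted p = 1.68e-04) and the call kept in all 20 alternatives. Fstl3, an activin-binding protein gene that overlaps Prss57 on the other strand, accounted for 39.3% shared 31-base stretches and had 1.24 ± 0.27 CPM in KO-labelled and 1.24 ± 1.07 CPM in WT-labelled libraries. The sources used here do not give the strand setting of the counting, so the strand of origin of the last Prss57 reads in the KO-labelled libraries, at 1.03 ± 0.47 CPM, was not resolved.

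Ratios within a library set these proteases and the peroxidase against each other. Per 100 Elane reads there were 0.27 to 0.33 Mpo reads in the KO-labelled libraries and 51.4 to 149 in the WT-labelled libraries. For Prss57 the same ratio was 0.73 to 0.78 in the KO-labelled and 11.6 to 25.7 in the WT-labelled libraries. Neither ratio overlapped between the groups (exact two-sided permutation p = 0.1 each, the smallest that 3 against 3 libraries allow; 0.2 after Benjamini-Hochberg adjustment over 6 ratios). Prtn3 was 3.92 to 5.56 times Elane in the KO-labelled libraries and 3.19 to 4.69 times in the WT-labelled libraries (exact permutation p = 0.5). Ctsg was 4.94 to 8.57 times Elane in the KO-labelled and 4.33 to 7.66 times in the WT-labelled libraries (exact permutation p = 1). The 3 abundant proteases thus kept overlapping proportions to each other, while the ratios of Mpo and Prss57 to Elane lay apart. These ratios restate the fold changes of the single genes and are no separate evidence.

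**Figure D2:**
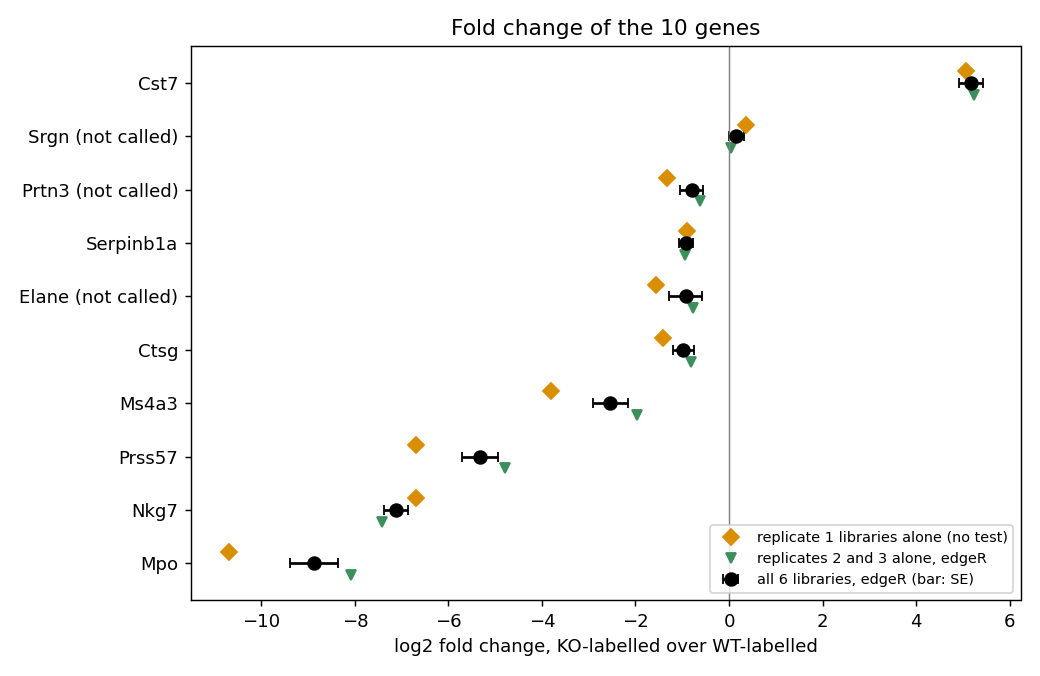
Log2 fold change of each gene, KO-labelled over WT-labelled, from all 6 libraries with its SE, from the replicate 1 libraries alone and from replicates 2 and 3 alone. The sign is the same in all 3 sets for each of the 10 genes, and Mpo, Prss57 and Ms4a3 have more negative values in the replicate 1 pair (−10.7, −6.70 and −3.80) than in replicates 2 and 3 (−8.09, −4.79 and −1.97).

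The inhibitors went in opposite directions. Serpinb1a encodes a cytosolic serpin that inactivates elastase, cathepsin G and proteinase 3, on chromosome 13 at 32842092 to 32851185. It had 412, 445 and 423 CPM in the libraries labelled KO, while those labelled WT had 774, 911 and 728 CPM. The KO-labelled libraries were close together and all below the WT-labelled ones. The log2 fold change was −0.91 (SE 0.15; edgeR adjusted p = 0.0055), and the call was lost in 1 of 20 alternatives, with replicates 2 and 3 summed in each group (adjusted p = 0.0997). Its transcripts shared 10.2% of 31-base stretches with other genes, mostly the copies Serpinb1b and Serpinb1c, which had 0.21 ± 0.14 and 0.029 ± 0.050 CPM in KO-labelled and 0.37 ± 0.41 and 0.35 ± 0.31 CPM in WT-labelled libraries. Ctsg was 1.4 to 1.99 times Serpinb1a in the KO-labelled and 1.74 to 1.99 times in the WT-labelled libraries (exact permutation p = 0.9).

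Cst7 encodes cystatin F, an inhibitor of cysteine cathepsins that in mouse and human cells targets cathepsin C, on chromosome 2 at 150570415 to 150578944. It had 88.2, 67.3 and 63.9 CPM in the libraries labelled KO (1957, 1555 and 1070 reads), while those labelled WT had 2.63, 1.55 and 1.84 CPM (63, 27 and 37 reads). Every KO-labelled library was far above every WT-labelled library. The log2 fold change was 5.17 (SE 0.26; edgeR adjusted p = 4.71e-05), and 166 of the 12126 genes rose more. Ctsc, the gene of cathepsin C, was lower, with 32.6, 17.5 and 18.5 CPM in the libraries labelled KO, while those labelled WT had 131, 224 and 228 CPM (log2 fold change −3.09, SE 0.33, edgeR adjusted p = 8.90e-04). There were 2.71 to 3.84 Cst7 reads per Ctsc read in the KO-labelled libraries and 0.0069 to 0.020 in the WT-labelled libraries. The exact permutation p was 0.1, the smallest possible, and 0.2 after Benjamini-Hochberg adjustment over 6 ratios. Since both genes lay apart between the groups, in opposite directions, their ratio had to lie apart too and is no separate evidence. Apmap, the next gene after Cst7, was 73.8 ± 2.36 CPM in KO-labelled and 54.3 ± 3.07 CPM in WT-labelled libraries (log2 fold change 0.44, SE 0.11, edgeR adjusted p = 0.022).

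Srgn encodes serglycin, the proteoglycan core on which granule proteins are packed, on chromosome 10 at 62493833 to 62527451. It had 966, 911 and 945 CPM in the libraries labelled KO, while those labelled WT had 752, 971 and 807 CPM. The groups overlapped, since WT-labelled replicate 2 was above all KO-labelled libraries. The log2 fold change was 0.16 (SE 0.16; edgeR adjusted p = 0.53), and the gene passed in none of the 20 alternatives, where the adjusted p lay between 0.31 and 0.75. Its neighbour Vps26a did not pass either (182 ± 4.62 CPM in KO- and 141 ± 19.0 CPM in WT-labelled libraries; log2 fold change 0.37, SE 0.14, edgeR adjusted p = 0.088).

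The membrane proteins Ms4a3 and Nkg7 were both lower. Ms4a3, a tetraspanning protein that marks granulocyte-monocyte progenitors in mice, lies on chromosome 19 at 11629496 to 11640851. It had 43.4, 91.9 and 89.3 CPM in the libraries labelled KO, while those labelled WT had 603, 402 and 301 CPM. Replicate 1 was the lowest of the KO-labelled and the highest of the WT-labelled libraries. The log2 fold change was −2.54 (SE 0.37; edgeR adjusted p = 0.0032), and all 20 alternatives kept the call (−2.78 to −1.97). The adjacent gene Ms4a2, of the same family and part of the IgE receptor of mast cells and basophils, did not pass (0.84 ± 0.31 CPM in KO- and 1.27 ± 0.17 CPM in WT-labelled libraries; edgeR adjusted p = 0.33).

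Nkg7, a granule membrane protein known from natural killer and cytotoxic T cells, lies on chromosome 7 at 43437073 to 43438249. It had 0.27, 0.17 and 0.18 CPM in the libraries labelled KO (6, 4 and 3 reads), while those labelled WT had 27.8, 33.1 and 28.8 CPM (667, 577 and 581 reads). The means were 144-fold apart (log2 fold change −7.12, SE 0.25, edgeR adjusted p = 2.44e-05), and the WT-labelled libraries varied little. Of 20 natural killer and T cell markers, 9 had no read in any library, among them Cd3e, Ncr1, Eomes and Tbx21. The summed level of the list was 2.86 to 7.98 CPM in the KO-labelled libraries and 1.75 to 4.42 CPM in the WT-labelled libraries, below that of Nkg7 alone in the WT-labelled libraries. Of 4 markers tested, 2 rose and 1 fell (median 2.07), where 13.7% of all genes were called higher and 13.7% lower. Gzmb, granzyme B, had 0 reads in the KO-labelled libraries and 0.75, 2.99 and 1.79 CPM in the WT-labelled libraries. Cd4 and Klrk1 were called higher at 1.98 ± 2.30 and 1.20 ± 0.14 CPM in KO-labelled libraries, against 0.038 ± 0.066 and 0.16 ± 0.15 CPM in WT-labelled libraries.

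Replicate 1 was lower than replicates 2 and 3 in the KO-labelled group for several of the genes. The mean of KO-labelled replicates 2 and 3 was 3.05 times replicate 1 for Mpo, 2.62 times for Prss57, 2.50 times for Elane, 2.09 times for Ms4a3, 1.78 times for Prtn3 and 1.48 times for Ctsg. For Serpinb1a and Srgn it was 1.05 and 0.96 times, and for Cst7 and Nkg7, where replicate 1 was higher, 0.74 and 0.65 times. In KO-labelled replicates 1, 2 and 3, Mpo had 4, 13 and 9 reads, Prss57 11, 31 and 21, and Nkg7 6, 4 and 3. Such low counts limit the precision of the quotients of these genes. In the WT-labelled group the same quotient was 0.50 for Mpo, 0.70 for Prss57, 0.58 for Ms4a3, 0.64 for Cst7 and 0.97 for Ctsg, and 1.42 for Elane, 1.18 for Srgn, 1.11 for Nkg7, 1.09 for Prtn3 and 1.06 for Serpinb1a. Among the KO-labelled libraries the granule proteases thus varied more than their serpin, and the part of replicate 1 in it was not tested beyond the values without it.

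Levels per kilobase of annotated exon allow a rough comparison of different genes. The length joins the exons of all annotated isoforms and can exceed that of the transcript expressed, so the order of genes is approximate. On this scale Ctsg was the most abundant of the 10 genes in both groups (738 ± 155 CPM per kb in KO-labelled and 1454 ± 213 in WT-labelled libraries). In the KO-labelled libraries Srgn came next at 428 ± 12.6 CPM per kb, before Prtn3 at 329 ± 98.2, Serpinb1a at 185 ± 7.29 and Elane at 137 ± 59.7, with Cst7 at 74.2 ± 13.3, Ms4a3 at 39.8 ± 14.5, Prss57 at 0.36 ± 0.16, Nkg7 at 0.23 ± 0.060 and Mpo at 0.12 ± 0.062 after them. In this order the neighbours Srgn and Prtn3, Serpinb1a and Elane, Elane and Cst7, Prss57 and Nkg7, and Nkg7 and Mpo overlapped within their SDs. In the WT-labelled libraries Prtn3 was second at 574 ± 56.9, followed by Srgn at 384 ± 51.7, Serpinb1a at 349 ± 41.3, Elane at 261 ± 50.3, Ms4a3 at 231 ± 81.6, Mpo at 58.4 ± 25.2, Nkg7 at 32.8 ± 3.07, Prss57 at 14.4 ± 3.24 and Cst7 at 2.03 ± 0.57 CPM per kb. Here Srgn and Serpinb1a, Serpinb1a and Elane, Elane and Ms4a3, and Mpo and Nkg7 overlapped within their SDs. Mpo thus stood last in the KO-labelled and seventh in the WT-labelled order, and Cst7 sixth in the KO-labelled and last in the WT-labelled order. Together the 10 genes took 0.23% to 0.34% of all counted reads in the KO-labelled and 0.48% to 0.57% in the WT-labelled libraries.

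**Figure D3:**
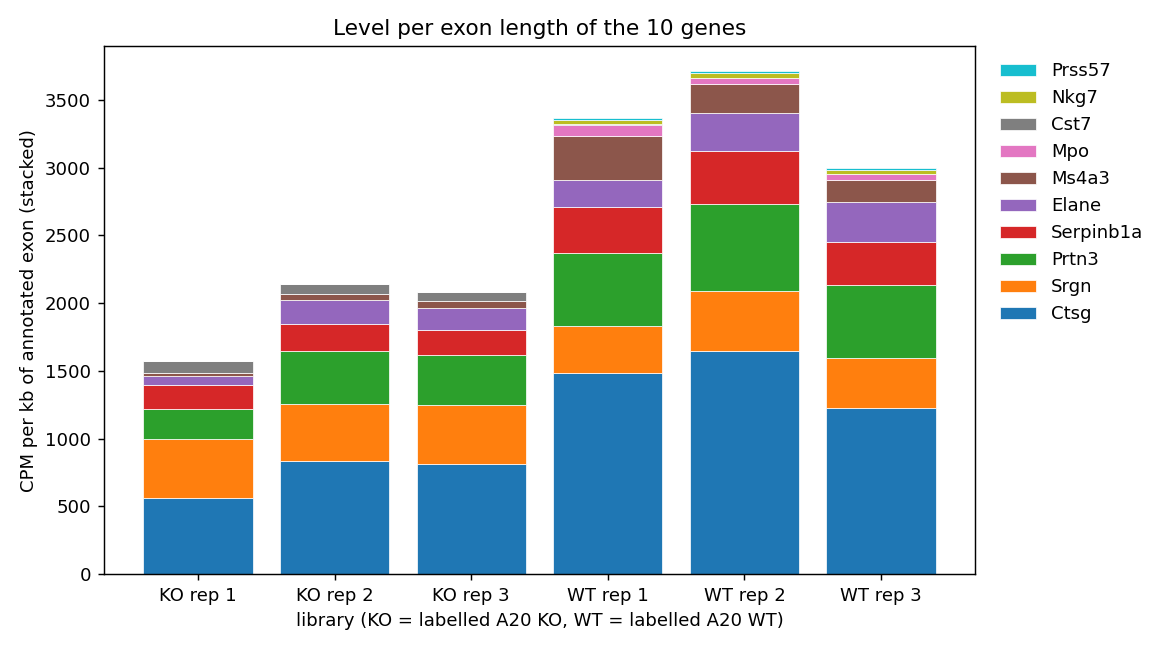
CPM per kb of annotated exon of the 10 genes, stacked for each library from Ctsg at the bottom, with the 3 KO-labelled libraries left and the 3 WT-labelled ones right. Ctsg, Srgn and Prtn3 make up most of every bar, Cst7 is visible in the KO-labelled bars and Mpo in the WT-labelled bars.

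The surroundings of the chromosome 10 cluster were examined gene by gene. Of 21 other protein-coding genes within 100 kb of the cluster, 15 were tested, of which 2 were lower, 2 higher and 11 did not pass, shares close to the 13.7% of all genes called in each direction. Palm, a membrane-anchored protein gene that starts next to Prss57, was lower (33.4 ± 7.18 CPM in KO-labelled and 72.6 ± 9.82 CPM in WT-labelled libraries; log2 fold change −1.12, SE 0.20, edgeR adjusted p = 0.00615), as was R3hdm4 (−0.47, SE 0.10, adjusted p = 0.015). Arid3a, a DNA-binding protein gene, was higher at 208 ± 9.97 CPM in KO-labelled and 83.5 ± 13.1 CPM in WT-labelled libraries (log2 fold change 1.32, SE 0.15, edgeR adjusted p = 0.0011), and Cdc34 was higher by a log2 fold change of 0.67 (SE 0.14). Ptbp1, which lies between Prss57 and Prtn3, did not pass (584 ± 71.7 CPM in KO- and 691 ± 188 CPM in WT-labelled libraries). Cfd, complement factor D and the next gene after Elane, was too low to be tested, at 0.084 ± 0.038 CPM in KO-labelled and 0.65 ± 0.51 CPM in WT-labelled libraries. Of the 14 genes directly beside the other 7 members, 5 were tested, with 1 lower (Mcpt8), 1 higher (Apmap) and 3 that did not pass.

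**Figure D4:**
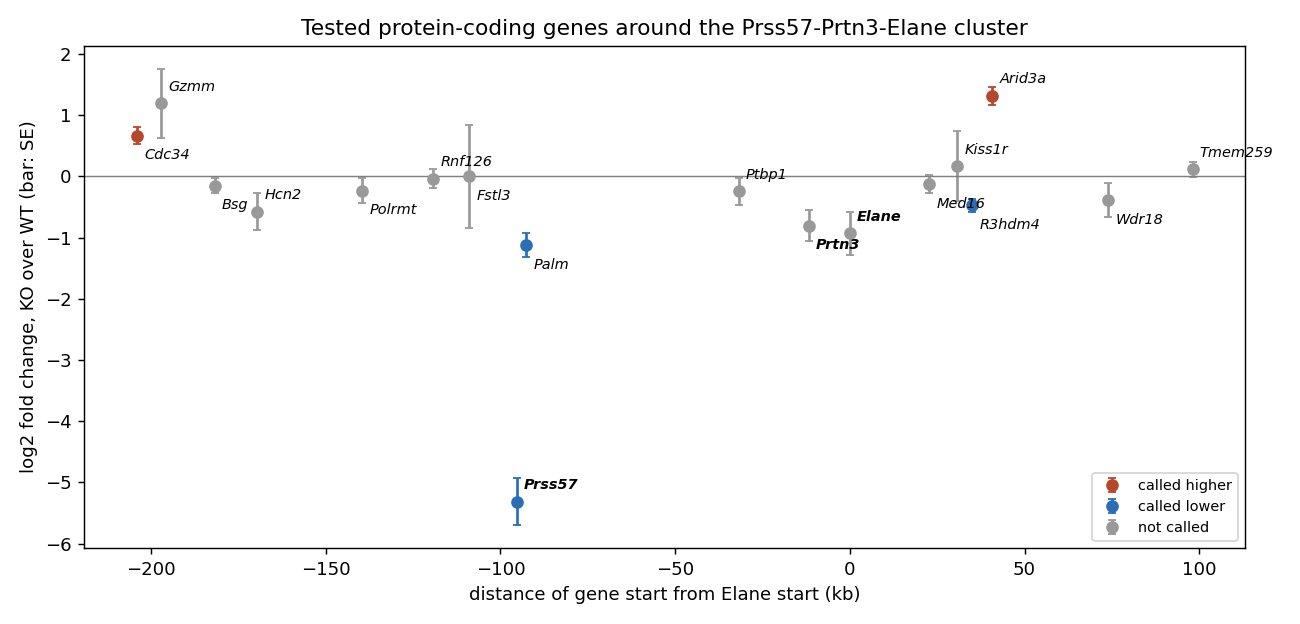
Log2 fold change with SE of the tested protein-coding genes around the cluster, against the distance of the gene start from the Elane start in kb. Prss57, 95.3 kb before Elane, stands at −5.32 while the other genes lie between −1.12 and 1.32.

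Of 20 tested genes for processing and sorting of granule proteases, 1 rose, 3 fell and 16 did not pass, where 27.3% of all genes were called in either direction, with a median log2 fold change of 0.14. Medians given for lists are over their tested genes, beside −0.04 over all genes. Besides Ctsc, Rab27a, a GTPase of granule release, was lower at 91.8 ± 1.52 CPM in KO-labelled and 269 ± 14.6 CPM in WT-labelled libraries (log2 fold change −1.55, SE 0.11, edgeR adjusted p = 1.68e-04), and so was G6pc3, a phosphatase whose loss causes neutropenia in humans (24.5 ± 1.19 CPM in KO- and 54.1 ± 21.95 CPM in WT-labelled libraries; −1.14, SE 0.27, edgeR adjusted p = 0.021). Hax1, another gene of inherited human neutropenia, was higher at 131 ± 7.55 CPM in KO- and 72.6 ± 19.8 CPM in WT-labelled libraries (0.85, SE 0.20, edgeR adjusted p = 0.019). The G6pc3 call was lost on leaving out any single library labelled KO (edgeR adjusted p = 0.069 to 0.078), and the Hax1 call on removal of any library but WT-labelled replicate 1 (0.055 to 0.070). Replicates 2 and 3 by themselves gave 3 higher and 6 lower, where 25.8% of all genes were higher and 27.1% lower, and the same shares apply to the counts from these replicates for the lists that follow.

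Other genes of primary granules and of granulocyte-monocyte progenitors went both ways, with 5 higher, 6 lower and 13 not passing of 24 tested (median 0.09). Of all genes tested, 13.7% were called higher and 13.7% lower. Ramp1, a receptor accessory protein, was lower at 9.04 ± 3.49 CPM in KO-labelled and 298 ± 47.8 CPM in WT-labelled libraries (log2 fold change −5.04, SE 0.31, edgeR adjusted p = 9.70e-05), and Dmkn at 0.16 ± 0.11 CPM in KO- and 6.82 ± 3.21 CPM in WT-labelled libraries. Anxa3, an annexin of neutrophil granules, was higher at 99.98 ± 0.70 CPM in KO-labelled and 58.4 ± 2.48 CPM in WT-labelled libraries (0.77, SE 0.10, edgeR adjusted p = 0.0022), and Igsf6 at 235 ± 59.1 CPM in KO- and 56.7 ± 19.2 CPM in WT-labelled libraries (2.06, SE 0.31, edgeR adjusted p = 0.0034). From replicates 2 and 3 alone, 7 were higher and 11 lower of 24, beside 52.9% of all genes called in either direction.

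Among transcription factors listed for the program, 4 rose, 5 fell and 13 did not pass of 22 tested (median −0.10). The list also holds factors of other blood lineages, among them Gata2 and Gfi1b. Gfi1, a repressor required for neutrophil development, was higher at 193 ± 13.6 CPM in KO-labelled and 75.8 ± 24.0 CPM in WT-labelled libraries (log2 fold change 1.35, SE 0.22, edgeR adjusted p = 0.0051). Ets1, of the ETS family, was higher at 147 ± 28.1 CPM in KO- and 37.0 ± 3.20 CPM in WT-labelled libraries (1.99, SE 0.18, edgeR adjusted p = 3.73e-04). Gata2, a factor of stem, mast and basophil cells, was lower at 4.93 ± 0.19 CPM in KO-labelled and 79.6 ± 34.8 CPM in WT-labelled libraries (−4.01, SE 0.32, edgeR adjusted p = 2.50e-04), and the erythroid and megakaryocyte factor Gfi1b at 0.064 ± 0.021 CPM in KO- and 9.83 ± 2.46 CPM in WT-labelled libraries (−7.13, SE 0.42, edgeR adjusted p = 8.76e-05). Named after their values were seen, Cebpa, the inducer of granulocyte fate, did not pass (194 ± 16.4 CPM in KO- and 210 ± 24.2 CPM in WT-labelled libraries; −0.11, SE 0.14), and neither did Spi1 (0.34, SE 0.17). Cebpe, which drives later granule genes, was lower at 6.07 ± 1.20 CPM in KO- and 11.001 ± 0.33 CPM in WT-labelled libraries (edgeR adjusted p = 0.026), and Myb at 318 ± 13.3 CPM in KO- and 524 ± 151 CPM in WT-labelled libraries (0.047). The Cebpe call did not survive removal of any library but WT-labelled replicate 1 (adjusted p = 0.062 to 0.082), nor the Myb call that of any KO-labelled library or WT-labelled replicate 3 (0.060 to 0.15). Also named after their values were seen, Cebpb was higher at 279 ± 39.7 CPM in KO- and 71.5 ± 34.2 CPM in WT-labelled libraries (1.97, SE 0.36, edgeR adjusted p = 0.0077). Egr1 was higher at 13.8 ± 2.26 CPM in KO- and 2.26 ± 1.76 CPM in WT-labelled libraries (2.62, SE 0.72, edgeR adjusted p = 0.035). Runx1 was lower at 38.0 ± 2.41 CPM in KO- and 102 ± 40.3 CPM in WT-labelled libraries (−1.42, SE 0.31, edgeR adjusted p = 0.014). The 9 factors called of 22 stand beside 27.3% of all genes, and the 5 higher and 8 lower in replicates 2 and 3 alone beside 52.9%.

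Further protease inhibitors were few among the tested genes. Their counts stand beside 13.7% of all genes called higher and 13.7% called lower. Of 9 other clade B serpins, 1 rose and 3 fell (median −0.17): Serpinb2 was higher at 21.8 ± 1.77 CPM in KO-labelled and 0.21 ± 0.36 CPM in WT-labelled libraries, whereas Serpinb6a was lower at 14.3 ± 2.98 CPM in KO- and 69.7 ± 15.4 CPM in WT-labelled libraries, Serpinb6b at 1.06 ± 0.52 CPM in KO- and 41.8 ± 23.8 CPM in WT-labelled libraries and Serpinb11 at 0.059 ± 0.069 CPM in KO- and 2.82 ± 0.71 CPM in WT-labelled libraries (edgeR adjusted p from 5.67e-04 to 0.0026). Of 6 other inhibitors 2 rose and none fell (median −0.06). Cstb, cystatin B, was higher at 336 ± 51.3 CPM in KO- and 137 ± 63.9 CPM in WT-labelled libraries (edgeR adjusted p = 0.038), a call lost when any single KO-labelled library or WT-labelled replicate 3 was left out (0.077 to 0.12), and Cst6 at 0.80 ± 0.33 CPM in KO- and 0.033 ± 0.030 CPM in WT-labelled libraries (0.0084). In replicates 2 and 3 alone 1 of the 9 serpins was higher and 4 were lower, and 2 of the 6 other inhibitors were higher and 4 lower, beside 25.8% and 27.1% of all genes.

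Markers of other blood cells were measured beside the granule genes, and their part in the differences was not tested. The counts of called markers stand beside 13.7% of all genes called higher and 13.7% called lower. The list of neutrophil secondary granule markers also holds genes of other parts of the cell, among them Padi4 and Fcer1g. Of its 12 tested genes 3 rose and 4 fell (median −0.21), with a summed level of 351 to 627 CPM in the KO-labelled and 462 to 954 CPM in the WT-labelled libraries. A few genes carried these sums: Fcer1g, an Fc receptor chain shared by many myeloid cells, had 277 to 496 CPM in the KO-labelled libraries and 79.7 to 147 CPM in the WT-labelled ones, and Mmp8, neutrophil collagenase, 3.94 to 16.7 CPM in the KO-labelled and 38.0 to 467 CPM in the WT-labelled ones. The sums therefore do not describe the list as a whole. Fcer1g was called higher (edgeR adjusted p = 0.015) and Mmp8 lower (0.013). Lcn2 was called lower as well, at 8.56 ± 3.87 CPM in KO- and 22.9 ± 7.96 CPM in WT-labelled libraries (edgeR adjusted p = 0.049). Padi4, which citrullinates histones, was lower at 1.31 ± 0.20 CPM in KO- and 163 ± 20.6 CPM in WT-labelled libraries and Pglyrp1 at 5.15 ± 0.76 CPM in KO- and 97.3 ± 8.42 CPM in WT-labelled libraries, while Ngp was higher at 3.52 ± 0.27 CPM in KO- and 0.057 ± 0.099 CPM in WT-labelled libraries and Cd177 at 5.15 ± 1.009 CPM in KO- and 1.56 ± 0.50 CPM in WT-labelled libraries, the last not passing without KO-labelled replicate 3 (edgeR adjusted p = 0.0503). Of 16 monocyte and macrophage markers 3 rose and 6 fell (median −1.14), and the summed level was 2916 to 5423 CPM in the KO-labelled and 1269 to 5188 CPM in the WT-labelled libraries. Ly6c2, which did not pass, made up 1585 to 2140 CPM of these sums in the KO-labelled and 836 to 1721.5 CPM in the WT-labelled libraries. These sums do not describe their list as a whole either. F13a1 (15.8 ± 1.53 CPM in KO- and 894 ± 604 CPM in WT-labelled libraries), Ms4a6c (1.31 ± 0.15 CPM in KO- and 124 ± 84.9 CPM in WT-labelled libraries) and Ms4a6d (1.31 ± 0.80 CPM in KO- and 113 ± 98.3 CPM in WT-labelled libraries) were lower and Cd14 (361 ± 137 CPM in KO- and 25.0 ± 14.0 CPM in WT-labelled libraries) was higher. Csf1r (207 ± 126 CPM in KO- and 24.8 ± 19.0 CPM in WT-labelled libraries) and Irf5 (52.4 ± 10.1 CPM in KO- and 18.9 ± 6.24 CPM in WT-labelled libraries) were called higher as well. Cx3cr1, Fcgr1 and Mrc1 were the remaining monocyte markers called lower. In replicates 2 and 3 alone 5 monocyte markers were higher and 13 lower of 19 tested, and 3 neutrophil markers higher and 6 lower.

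Mast cell and basophil markers included 1 that rose and 4 that fell of 7 tested (median −1.80). These and the counts below stand beside 13.7% of all genes called higher and 13.7% called lower. The summed level of the mast cell and basophil list was 525 to 554 CPM in the KO-labelled and 503 to 556 CPM in the WT-labelled libraries. Kit, the SCF receptor, which progenitors express as well, was lower at 102 ± 1.36 CPM in KO- and 353 ± 48.0 CPM in WT-labelled libraries, and Cyp11a1 was higher at 421 ± 13.5 CPM in KO- and 60.0 ± 15.9 CPM in WT-labelled libraries. Cyp11a1 made up 407 to 434 CPM of the KO-labelled and 41.7 to 70.2 CPM of the WT-labelled sums. Kit made up 100 to 103 CPM and 307 to 403 CPM of them. The near-equal sums thus do not describe this list as a whole. Mcpt8 (4.63 ± 1.45 CPM in KO- and 17.7 ± 5.29 CPM in WT-labelled libraries) and Cd200r3 (0.098 ± 0.089 CPM in KO- and 1.13 ± 0.27 CPM in WT-labelled libraries) were lower too. Of the 20 listed genes 7 had no read in any library: Mcpt2, Cma1, Tpsab1, Tpsb2, Prss34, Fcer1a and Mrgprb1. The eosinophil list summed to 0.95 to 2.30 CPM in the KO-labelled and 0 to 0.38 CPM in the WT-labelled libraries, where Alox15 was called higher, with 0.80 ± 0.44 CPM in the KO-labelled libraries and no read in the WT-labelled libraries. Of 7 erythroid and megakaryocyte markers 1 rose and 4 fell (median −1.85), all 4 adult globin genes listed had no read, and the sum was 49.1 to 143 CPM in the KO-labelled and 49.99 to 57.6 CPM in the WT-labelled libraries. Vwf, von Willebrand factor, which did not pass, made up 122, 38.5 and 35.2 CPM of the sums in the KO-labelled libraries and 2.80, 26.1 and 26.2 CPM of those in the WT-labelled ones. Itga2b, an integrin of megakaryocytes and early progenitors, was lower at 0.83 ± 0.15 CPM in KO- and 26.6 ± 8.21 CPM in WT-labelled libraries, Gp9 at 0.030 ± 0.052 CPM in KO- and 3.45 ± 0.37 CPM in WT-labelled libraries and Pf4 at 0.11 ± 0.16 CPM in KO- and 1.25 ± 0.38 CPM in WT-labelled libraries, whereas Car2 was higher at 14.3 ± 4.16 CPM in KO- and 2.26 ± 1.68 CPM in WT-labelled libraries. The calls of Pf4, Car2, Cd4 and Klrk1 were each lost without at least 2 of the single libraries (edgeR adjusted p up to 0.13).

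**Figure D5:**
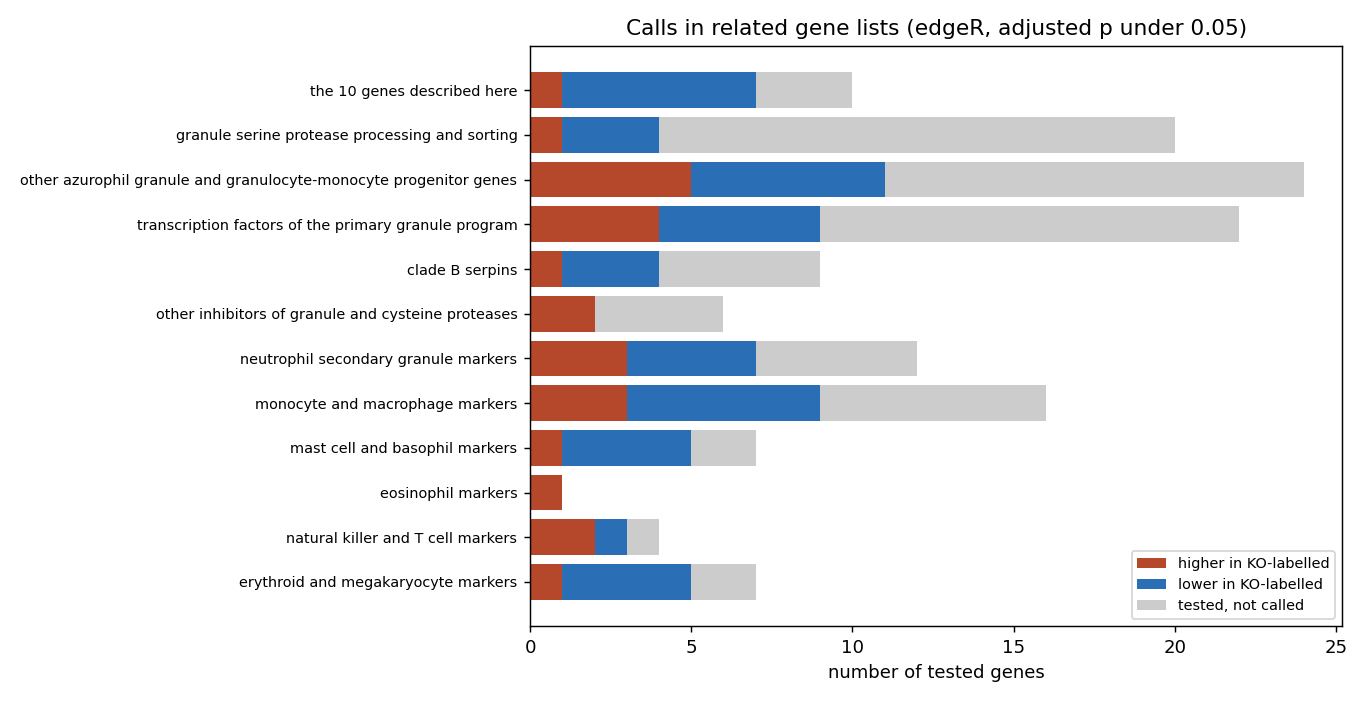
Number of tested genes called higher, called lower and not called in the KO-labelled libraries (edgeR, adjusted p under 0.05) for the 10 genes and for each related list. The 10 genes have 1 higher and 6 lower, and the protease processing list 1 higher and 3 lower of 20. Over all genes tested, 13.7% were called higher and 13.7% lower.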

How the data were processed

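The authors deposited whole-number counts of reads for 24062 genes in 6 libraries, not normalized. Per the labels, RNA was prepared with a stranded TruSeq mRNA kit, and per the submitters' processing notes FastQC 0.11.7, HISAT2 2.0.5, featureCounts 1.5.2 and mm10 were used; the sources used here do not give the annotation or the strand setting. A gene's count therefore pools all its isoforms, and overlapping genes may share reads.

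Counts were fitted over all genes with edgeR 4.0.16 in R 4.3.3: default low-count filter (12126 genes left), TMM scaling, robust quasi-likelihood test, Benjamini-Hochberg adjustment over all genes tested, threshold 0.05, no covariate, KO-labelled over WT-labelled. DESeq2 1.42.0 and limma 3.58.1 (voom) were alternatives, and the tools were tested on simulated data. Positions, exon lengths and 31-base matches came from GENCODE M21 (GRCm38, the assembly of mm10), and start regions from RefSeq (GRCm38.p6). Ratios within libraries were compared by exact two-sided permutation.

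The members and the 11 lists (210 symbols found of 217; Ap3s1, Cebpe, Gata2, Hdc and Klf4 are in 2 lists) were chosen with earlier results of these data known. Named were all members, Tnfaip3 and the called genes of each list with the smallest p, up to 4 (or the 2 of highest mean CPM). Protein-coding genes within 100 kb of the Prss57-Prtn3-Elane cluster and the genes beside each other member were named too. Ptprc, Xist, Ddx3y, Cebpa, Cebpe, Spi1, Myb, Gapdh, Cd200r3, Fcer1g, Mmp8, Vwf, Serpinb1b and Serpinb1c were added after their values were seen. So were Cebpb, Egr1, Runx1, Lcn2, Ly6c2, Csf1r, Irf5, Cx3cr1, Fcgr1 and Mrc1. The labels do not show separate cultures, so p-values reflect library spread that may be technical. Figures were drawn with matplotlib 3.10.9.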

Additional observations from a re-analysis of the deposited data

How the results depend on the processing

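In all 20 alternatives 1 of the 10 genes was called higher, and 4 to 8 were called lower; no gene changed sign. Mpo, Nkg7, Prss57, Ms4a3 and Cst7 kept their calls and Srgn was never called. Ctsg lost its call in 6 alternatives (edgeR adjusted p up to 0.12), Serpinb1a in 1, and Elane and Prtn3 gained one in 4 and 5. The counts over all genes moved more: the 1660 higher and 1656 lower genes became 3149 and 3309 in replicates 2 and 3 alone, 543 and 518 with replicates 2 and 3 of each group summed, 982 and 945 with KO-labelled replicates 2 and 3 summed, and 821 and 873 at an adjusted p of 0.01. With single libraries left out they ranged from 939 to 2712 higher and from 916 to 2568 lower, the highest without WT-labelled replicate 1 and the lowest without KO-labelled replicate 2. A replicate block gave 989 and 1034; Elane then passed (edgeR adjusted p = 0.044), as Elane and Prtn3 did with a term for replicate 1 (0.013 and 0.024), but neither with replicates 2 and 3 of each group summed (0.29 and 0.22). Deviations of same-numbered libraries correlated at −0.0060, −0.055 and 0.052, so the numbers were not taken as pairs, although Gapdh was about as high in replicate 1 of both groups (2716 CPM KO-labelled, 2645 CPM WT-labelled; 167 to 254 CPM in the others). Counts of 26 Mpo, 63 Prss57 and 13 Nkg7 reads over the KO-labelled libraries limit the precision of those folds.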
